A study of Mus musculus with 24 samples.

Results

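The data described here are the strain differences in chromatin accessibility of CA1 excitatory neurons between C57BL/6J (B6) and DBA/2J (D2) mice. Accessibility was read from nuclei of the ventral hippocampus with the single-nucleus assay for transposase-accessible chromatin, in which a transposase cuts DNA that is not wrapped tightly in nucleosomes. For each library the read counts of all nuclei that the study assigned to CA1 were summed, and every peak (a stretch of the genome in which cuts pile up) on an assembled chromosome with at least 10 counts over the 4 libraries was kept. This gave 300710 of the 300819 peaks in the table. Of the others, 43 lay on unplaced scaffolds and 66 had fewer than 10 counts.

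The hippocampal field CA1 holds pyramidal neurons that release glutamate and carry the main output of the hippocampal circuit, and its ventral part is known for its role in emotional and social behaviour. Open chromatin marks promoters, where transcription starts, and enhancers, which act on promoters from a distance and are often particular to a cell type. Inbred strains differ at many sequence variants and at stretches of DNA that are missing or present in several copies, and both kinds of difference can change how many reads fall in a peak.

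B6 and D2 were each represented by 2 accessibility libraries and 2 RNA libraries from adult males 10 to 16 weeks old, with nuclei of about 2 animals pooled in each. The labels name no transgene and no treatment. Reads of B6 were placed on the mm10 genome and reads of D2 on mm10 with the D2 single-base variants put in, so strain and mapping reference cannot be told apart. The columns of the count tables number the libraries 2 and 3 in both strains, and values below are given in that order.

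CA1 took up 8882 of 27206 nuclei (32.7%), 3886 of them in B6 and 4996 in D2. Their summed counts ranged from 29836947 to 41446767 a library. Levels are given as CPM, which are counts set to a common library total, after scaling by the trimmed mean of M values (TMM), and a log2 difference above 0 means higher in D2. Since counts are summed over nuclei, more nuclei with an open site and more cuts per open site cannot be told apart. Over 47287 peaks with a mean of at least 5 CPM, the log CPM of the libraries correlated at 0.985 within B6, at 0.989 within D2 and at 0.932 to 0.939 between the strains. These correlations run across peaks, which are not independent replicates.

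The CA1 label was checked against its markers. All 7 CA1 markers had promoter peaks, whose summed level was 216, 214, 219 and 224 CPM, and none of the 6 promoter peaks of the pyramidal markers or the 11 of the CA1 markers was called between the strains, against 8.92% of the promoter peaks of all genes. Genes of other cells were not absent. Summed promoter levels were 95.9 to 103 CPM for CA3 markers, 28.2 to 31.9 for dentate gyrus markers, 27.9 to 30.98 for interneuron markers, 21.3 to 23.5 for oligodendrocyte markers, 20.05 to 25.5 for astrocyte markers, 10.6 to 10.9 for microglia, 22.7 to 24.8 for vascular cells and 11.9 to 17.2 for oligodendrocyte precursors. The markers Mog, Sox10, Gfap and Aldh1l1 each stayed under 1 CPM, while Mbp was at 19.1 to 21.6 CPM, Slc1a3 at 11.1 to 15.3 CPM and Gja1 at 5.56 to 6.83 CPM. Of the 5 astrocyte markers, Slc1a3 had 2 promoter peaks higher in D2, and 1 promoter peak of the oligodendrocyte precursor marker Pdgfra was lower in D2. In CA1 RNA 1 of the 4 pyramidal markers was called higher in D2 and 1 lower. Of the 7 CA1 markers, 1 transcript was called higher and 2 lower, against 33.2% called of all symbols with counts in every library. The oligodendrocyte markers summed in RNA to 134 and 141 CPM in B6 and 89.8 and 85.97 CPM in D2. Microglia markers were at 208 and 195 CPM against 167 and 157 CPM, and CA3 markers at 248 and 220 CPM against 291 and 280 CPM. Of the transcripts tested, 3 of 5 were called lower for oligodendrocytes, 1 of 4 lower for microglia and 1 of 4 higher for CA3. The part of these differences in the results below was not tested.

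Between the strains, 24795 peaks (8.25%) passed an adjusted p of 0.05 in edgeR's quasi-likelihood test with Benjamini-Hochberg adjustment over all peaks. Of these, 12368 (4.11%) were higher in D2 and 12427 (4.13%) were lower. Most differences were modest: the median absolute log2 difference of the called peaks was 0.84, against 0.21 for all peaks tested, and 2439 called peaks passed 2 on the log2 scale, 934 of them higher and 1505 lower. Peaks lower in D2 were smaller and differed more, with a median level of 1.70 CPM and a median difference of 0.96, than peaks higher in D2, with 3.17 CPM and 0.71. A low peak must differ by more to be called, and the balance of directions by level moved with the scaling, as given below. The D2 libraries lay on one side of both B6 libraries in 24756 of the called peaks, and in 47.5% of all peaks tested. Without D2 library 2 the count of called peaks was 15618, and without each of the other libraries it was 17066 to 19262. DESeq2 called 7520. With total counts in place of TMM the number was 24743, but the split became 10022 higher and 14721 lower.

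**Figure D1:**
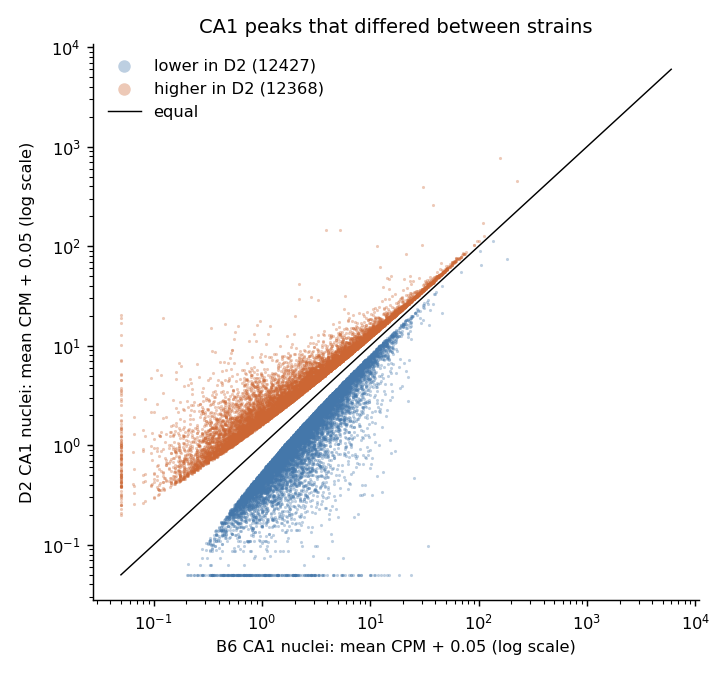
Each point is 1 of the 24795 called CA1 peaks, with its mean level in the 2 B6 libraries on the horizontal axis and in the 2 D2 libraries on the vertical axis, in CPM plus 0.05 on log scales; the line marks equal levels. The 12368 peaks above the line and the 12427 below it crowd near the line at high levels, while the points along the lower and left edges had no count in 1 strain.

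The sequences of 2 peaks with very large differences are printed first. Each had very few counts in 1 strain, while few of its 31-base words occur elsewhere in the B6 reference. Whether the chromatin was closed there, or the DNA absent or not mapped, was not tested. They are the 300 bases around the centre of each peak, longer than the peak itself near Chchd5 (222 bases), on the forward strand of the B6 reference genome (mm10, GRCm38), with matches to the motifs searched in capitals. The motifs were AP-1 (TGANTCA), the E-boxes CAGATG and CAGCTG, NFI (TTGGCA), SP/KLF (GGGCGG) and 4 longer ones. The D2 sequence was not read, so variants of D2 inside these windows are not shown.
Upstream of Etaa1, chr11:17985833-17986132: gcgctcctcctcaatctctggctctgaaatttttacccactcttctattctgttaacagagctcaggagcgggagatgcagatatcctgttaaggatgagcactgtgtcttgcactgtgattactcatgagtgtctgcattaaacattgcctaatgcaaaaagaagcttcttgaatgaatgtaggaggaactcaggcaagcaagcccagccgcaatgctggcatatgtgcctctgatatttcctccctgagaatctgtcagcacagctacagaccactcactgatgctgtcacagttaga
Downstream of the start of Chchd5, chr2:129137498-129137797: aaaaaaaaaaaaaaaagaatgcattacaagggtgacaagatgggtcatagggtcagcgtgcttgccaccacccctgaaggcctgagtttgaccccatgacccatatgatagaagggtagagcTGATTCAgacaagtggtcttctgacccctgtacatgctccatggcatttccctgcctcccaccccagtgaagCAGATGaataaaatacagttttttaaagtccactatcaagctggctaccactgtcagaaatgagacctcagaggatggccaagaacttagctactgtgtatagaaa
The first holds no match. The second holds an AP-1 and a CAGATG match.

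The peak 32108 bp upstream of Etaa1, a gene of the replication stress response, measured 11.2 and 9.34 CPM in B6 and 0.224 and 0.315 CPM in D2. Its log2 difference was −5.21 ± 0.21 (SE, adjusted p = 2.00e-53 in edgeR's quasi-likelihood test). The peak 7948 bp downstream of the start of Chchd5, which encodes a small protein with paired cysteines, went the other way, with 0.233 and 0.351 CPM in B6 and 14.5 and 15.7 CPM in D2 (log2 difference 5.66 ± 0.19). Etaa1 RNA was at 6.77 and 7.09 CPM in B6 and 6.42 and 7.92 CPM in D2, and its test did not pass (adjusted p = 0.880 in edgeR).

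Among peaks with counts in every library and a mean of at least 5 CPM, 7 of the 10 with the largest increase in D2 lay in Sfi1, which encodes a centrosome protein that binds centrins. The tallest of these 7 in D2, chr11:3157710-3158730 over an exon of the gene, measured 4.22 and 3.54 CPM in B6 and 155 and 138 CPM in D2 (log2 difference 5.24 ± 0.088). A second, chr11:3143955-3146269, measured 5.12 and 5.27 CPM against 154 and 137 CPM. Every one of the 16 tested peaks in the body of Sfi1 was higher in D2, with a median log2 difference of 4.25 and a range of 0.94 to 7.87. Their summed counts were 2011 and 2062 in B6 and 34322 and 35609 in D2. In those of these peaks where 31-base words were counted, between 0 and 94.9% of them occur at more than 1 place in the reference, so reads from copies elsewhere could have been counted here. The promoter peak of the gene, chr11:3192223-3193882, held no repeated word and was also higher, with 33.5 and 28.3 CPM in B6 and 423 and 363 CPM in D2 (log2 difference 3.67 ± 0.066). Words were counted in the B6 reference only, so copies present in D2 alone would not show. The other 3 of the 10 were the peak near Chchd5, an intron peak of Gm7916 on chromosome X and a peak on chromosome Y.

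The 10 largest decreases in D2 began with a peak at the starts of the genes CR974462.6 and Gm4152 on chromosome 17, chr17:33980589-33981766, 19080 bp from the start of the class I histocompatibility gene H2-K1. It measured 26.5 and 24.5 CPM in B6 and 0.280 and 0.557 CPM in D2 (log2 difference −5.88 ± 0.15). A peak 5762 bp upstream of Srbd1 was at 13.9 and 12.1 CPM in B6 and 0.448 and 0.533 CPM in D2, while Srbd1 RNA, at 43.0 and 43.5 CPM against 42.9 and 39.7 CPM, did not pass. Also among the 10 were the peak described above near Etaa1, 3 intron peaks of Gm47283 on chromosome Y, a peak at Gm4742 on chromosome 14 and a peak 3896 bp upstream of 9230113P08Rik on chromosome 9.

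Some peaks had counts in 1 strain only. No count was found in B6 at 112 peaks and none in D2 at 298. All of these were called, but they passed the minimum of 10 counts through the other strain alone. Their call was thus close to fixed by the filter and is no separate result. For a bound, the empty strain was set to 3 counts over its libraries. Of the 5 tallest without counts in B6, 3 lay on chromosome 19, among 9 such peaks between chr19:56494017-56521013 in which every 31-base word was repeated. The tallest, chr19:56510394-56511855, measured 20.3 and 20.1 CPM in D2, which was at least 419-fold higher than in B6. The gene nearest to it, Dclre1a, an enzyme that repairs DNA crosslinks, had 5.38 and 5.995 CPM of RNA in B6 and 20.3 and 23.5 CPM in D2 (log2 difference 1.94 ± 0.15). Repeated sequence was frequent among these peaks. More than 50% of the words were repeated in 62.5% of the peaks empty in B6 and in 29.5% of those empty in D2, against 0.670% of the 7612 tested peaks of chromosome 19.

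Not every empty peak was repetitive. An intron peak of Macrod2, which encodes an enzyme that removes ADP-ribose from proteins, had no repeated word and measured 18.1 and 18.8 CPM in B6 and 0 in both D2 libraries, at least 488-fold lower in D2. Macrod2 RNA was lower in D2 by much less, at 1749 and 1718 CPM in B6 and 1425 and 1357 CPM in D2 (log2 difference −0.32 ± 0.055). At the start of Gm5358, where 0.871% of words were repeated, the level was 15.6 and 14.1 CPM in B6 and 0 in D2 (at least 392-fold lower). The tallest peak empty in D2, chr6:47747931-47748564 at 25.4 and 22.5 CPM in B6, had 95.9% repeated words, and those at Zfp125 and 9430037G07Rik had 60.0% and 63.1%.

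At promoters, taken as peaks within 1 kb of the start of a gene, 2522 of 28261 peaks (8.92%) were called, 5.79% higher and 3.13% lower in D2. Among intergenic peaks 9.75% were called, and 7.07% in introns and 7.69% in exons. The excess of higher promoter peaks moved with peak height. In the tallest eighth of all peaks 9.95% were higher and 3.01% lower, and in the lowest eighth 1.04% were higher and 1.78% lower. The tallest eighth took 57.03% and 56.2% of CA1 counts in B6 and 58.8% and 58.0% in D2. When a smooth trend of the difference with peak height was taken out in each library, 3.76% of promoter peaks were higher and 4.14% lower, so the direction of the excess turned. Peaks in windows with over 40 CpG per kb behaved alike, with 6.19% higher and 1.40% lower before and 2.22% and 3.57% after.

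**Figure D2:**
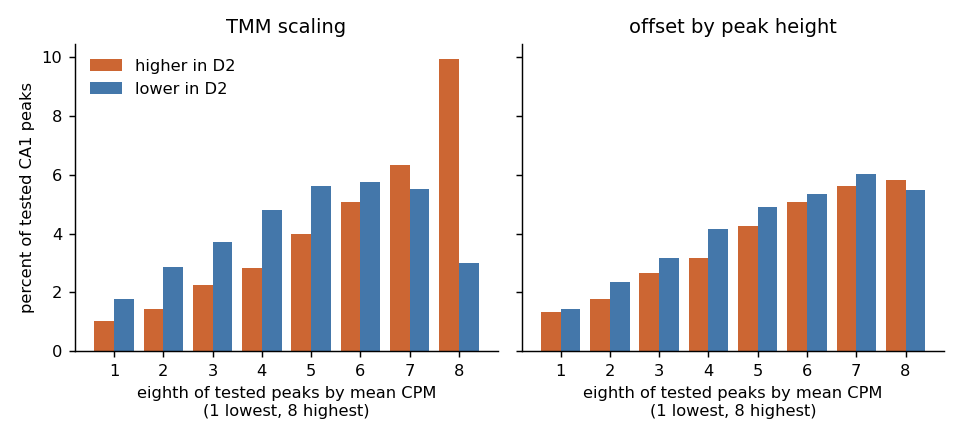
Bars give the percent of tested CA1 peaks called higher (orange) and lower (blue) in D2, in eighths of the peaks ordered by mean CPM from lowest to highest, after TMM scaling (left) and after offsets that remove the trend with peak height (right). The tallest eighth had 9.95% higher and 3.01% lower on the left and 5.82% and 5.47% on the right.

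The promoters of protein-coding genes with the largest increases, among those with a mean of at least 2 CPM and counts in every library, belonged mostly to genes with little or no CA1 RNA. Gm7102 had the largest log2 difference (4.58 ± 0.29), followed by Ftmt, mitochondrial ferritin, with 0.299 and 0.498 CPM in B6 and 7.18 and 6.40 CPM in D2. Then came Sfi1 and the receptor gene Tlr6 of innate immunity, with 0.432 and 0.439 CPM against 4.51 and 4.17 CPM (log2 difference 3.30 ± 0.24). Cd244a, a receptor of natural killer cells, the urinary protein gene Mup5, the zinc finger gene Zfp458, the sperm channel gene Catsperg2, the claudin gene Cldn20 and the protocadherin gene Pcdhb1 differed by 2.28 to 2.74. RNA passed the minimum count for 4 of these 10 genes. Sfi1, Zfp458 and Catsperg2 had more RNA in D2, and Gm7102 was listed at 0 in both B6 libraries.

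Among promoter peaks of protein-coding genes, ranked in the same way, decreases were led by the peak shared by Gm19684 and the class I histocompatibility gene H2-T10, at 9.38 and 7.49 CPM in B6 and 0.701 and 0.509 CPM in D2 (log2 difference −3.80 ± 0.19). Mid1, a ubiquitin ligase on microtubules, followed with 7.31 and 9.83 CPM in B6 and 0.953 and 0.533 CPM in D2. Its RNA was at 19.3 and 26.5 CPM in B6 and at 25.2 and 46.5 CPM in D2, higher in edgeR (adjusted p = 0.0191) but not past the threshold in DESeq2 (adjusted p = 0.365). The interferon-inducible gene Mndal had 5.25 and 4.39 CPM at its promoter in B6 and 0.392 and 0.509 CPM in D2 (log2 difference −3.39 ± 0.22), and its RNA was lower too, at 1.46 and 2.93 CPM against 0.132 and 0.237 CPM. Neu2, a cytosolic sialidase, went from 10.2 and 10.2 CPM to 1.82 and 1.48 CPM while its RNA did not pass (adjusted p = 0.475 in edgeR). Anapc15, a subunit of the ubiquitin ligase that ends mitosis, and Coil, a protein of Cajal bodies, had lower promoters (log2 differences −2.72 and −2.16) and more RNA in D2 (0.70 and 0.58). Nat8f4, 9030624G23Rik, the granzyme gene Gzmn and the peak shared by the sterol transporters Abcg5 and Abcg8 made up the rest, with differences of −2.28 to −3.05.

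Called peaks were unevenly spread over the genome. By chromosome the share ran from 3.64% of 6242 peaks on X to 10.4% on chromosome 14, and 27 of the 43 tested peaks on Y were called. Chromosome 19 leaned to higher in D2 (6.21% against 3.56%), and chromosomes 7 and 9 leaned to lower (3.75% against 5.47% and 3.28% against 5.16%). Over 523 windows of 5 Mb with at least 50 peaks, the share ranged from 0 to 33.5% with a median of 7.49%, and it passed 15% in 50 windows. The highest window was 50 to 55 Mb on chromosome 14, with 82 peaks higher and 59 lower of 421. At 20 to 25 Mb on X, none of 157 peaks was called.

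**Figure D3:**
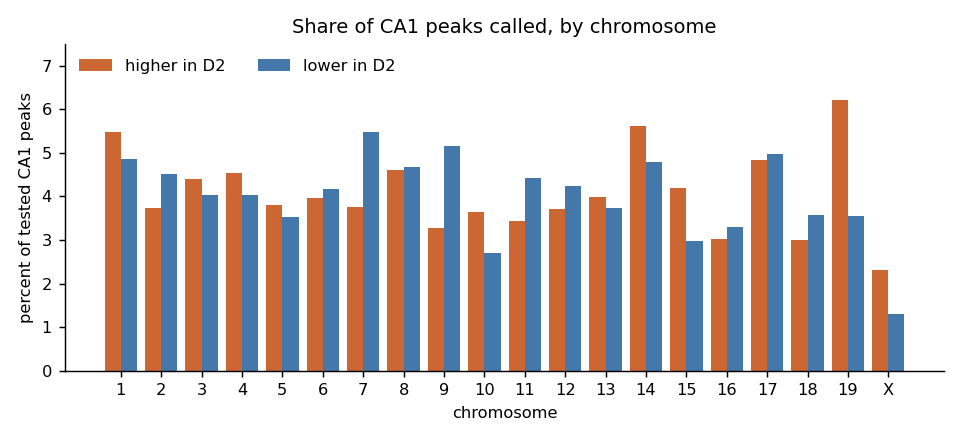
Bars give the percent of tested CA1 peaks called higher (orange) and lower (blue) in D2 on each autosome and on X. X had the lowest shares (2.32% and 1.31%) and chromosome 19 the highest share of peaks higher in D2 (6.21%); chromosome Y, with 43 peaks, is not drawn.

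In windows of 1 Mb the highest share was 47.9%, at 171 to 172 Mb on chromosome 1, where 55 of 146 peaks were higher and 15 lower. The Cd244a promoter lies there. Another window on the same chromosome, at 85 to 86 Mb, had 28 peaks higher and 1 lower of 78, and repeated words made up a median of 97.0% in those of its peaks where they were counted. Called peaks also lay near others of the same direction. The nearest neighbour within 10 kb was called higher for 13.5% of higher peaks and called lower for 4.90%. For lower peaks the shares were 4.93% and 13.6%, and for peaks that were not called they were 3.47% and 3.37%.

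At some loci a large share of the peaks of 1 gene was called. These genes were found by ranking the 2178 genes with at least 20 tested body peaks on the share called, and were thus chosen after their values were seen. Over all genes 7.16% of body peaks were called. Mtor, the growth-regulating kinase, had 10 of 21 peaks called, 2 higher and 8 lower in D2. Clmp, an adhesion molecule, had 9 of 20 lower and none higher, and its RNA was lower by 0.40 on the log2 scale (adjusted p = 0.0336 in edgeR, 0.172 in DESeq2). Rerg, a Ras-like growth inhibitor, had 9 higher and 2 lower of 25, with RNA at 13.1 and 11.4 CPM in B6 and 27.7 and 23.2 CPM in D2. Col6a6, a collagen, had 12 of 29 higher and none lower.

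A run of higher peaks covered the adjoining genes Btbd9, Glo1 and Dnah8 on chromosome 17. Of 131 peaks in their bodies and promoters, between chr17:30225063-30878095, 49 were higher in D2 and none was lower, with a median log2 difference of 0.50. Repeated words were counted only in called promoter peaks with the larger differences, which held none. They were not counted in the other peaks, the Glo1 promoter among them. Dnah8, a dynein heavy chain of cilia, had 16 of 36 peaks higher, and its RNA was at 1.33 and 1.43 CPM in B6 and 11.97 and 15.5 CPM in D2 (log2 difference 3.30 ± 0.22). Glo1, glyoxalase 1, which removes methylglyoxal, had its promoter peak at 16.1 and 15.4 CPM in B6 and 31.2 and 31.6 CPM in D2 (log2 difference 1.00 ± 0.078). Its RNA, at 8.83 and 8.31 CPM against 9.13 and 10.4 CPM, did not pass (adjusted p = 0.385 in edgeR). Btbd9 had 30 of 91 body peaks higher, while its RNA was lower in D2, at 284 and 280 CPM in B6 and 170 and 165 CPM in D2 (log2 difference −0.75 ± 0.065).

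Sequence content of the called peaks was compared with all 300710 peaks, in the 300 bases around each centre and on both strands. AP-1 (TGANTCA), the site of Fos and Jun factors, stood in 18.3% of peaks higher in D2, in 14.3% of those lower and in 14.5% of all. With DESeq2 calls the shares were 17.0% and 15.3%. The E-boxes, sites of neuronal basic helix-loop-helix factors, leaned the other way. CAGATG stood in 31.1% of higher and 35.7% of lower peaks against 32.1% of all, and CAGCTG in 18.1% and 20.7% against 20.5%. NFI (TTGGCA) stood in 22.5%, 21.0% and 21.2%. For SP/KLF (GGGCGG), a motif of CpG-rich promoters, the shares of 9.33% and 5.79% became 6.89% and 7.30% after offsets for peak height and GC content, so its direction turned. A match is only a run of letters in the reference and says nothing of binding. By GC content, the share called fell from 10.2% in the lowest eighth of peaks to 6.02% in the highest.

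CA1 transcripts of the same strains gave a second readout from other libraries. Their reads were placed on references made in the same way for each strain, and the cell types of the ATAC nuclei were transferred from the RNA data. Of 19704 gene symbols tested, 8207 (41.7%) were called, 5062 higher and 3145 lower in D2. The symbol tables of the strains differ, since 998 symbols without any B6 count reached 100 counts in D2, and 68 the reverse. Directions are therefore read only for symbols with counts in every library, of which 33.2% were called. Promoter peaks were paired with the transcripts of their genes in 15821 pairs. Accessibility was called in 1229 pairs and both readouts in 553. Both were higher in D2 in 296 pairs and both lower in 100, while accessibility was higher and RNA lower in 140 and the reverse in 17. The direction was thus shared by 71.6% of pairs called in both.

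Transcripts were called more often beside called promoters, in 45.0% of pairs against 31.9% where the promoter was not called. For promoters higher in D2, 29.1% of transcripts were higher and 13.8% lower. Where promoters were lower in D2, 8.02% were higher and 47.2% lower, and where the promoter was not called the shares were 15.3% and 16.6%. After offsets for peak height and GC content the pairs called in both numbered 180 both higher, 176 both lower, 60 with higher accessibility and lower RNA and 50 with the reverse (76.4% shared). DESeq2 in both assays left 132 pairs, of which 80.3% shared the direction. Pairs of 1 gene share its transcript, and genes are not replicates.

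The 10 pairs with the strongest evidence in both assays came from 9 genes. To show what the accessible promoters of 3 of them look like, the 250 bases before the start are printed from the B6 reference (GRCm38) in the direction of transcription, with motif matches in capitals.
Fggy, chr4:95557257-95557506, forward strand: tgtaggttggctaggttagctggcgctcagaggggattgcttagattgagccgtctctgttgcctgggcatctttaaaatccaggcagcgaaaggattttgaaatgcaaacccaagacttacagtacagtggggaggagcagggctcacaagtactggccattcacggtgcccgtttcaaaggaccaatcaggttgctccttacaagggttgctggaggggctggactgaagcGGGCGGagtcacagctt
Rgs9, chr11:109298182-109298431, reverse strand: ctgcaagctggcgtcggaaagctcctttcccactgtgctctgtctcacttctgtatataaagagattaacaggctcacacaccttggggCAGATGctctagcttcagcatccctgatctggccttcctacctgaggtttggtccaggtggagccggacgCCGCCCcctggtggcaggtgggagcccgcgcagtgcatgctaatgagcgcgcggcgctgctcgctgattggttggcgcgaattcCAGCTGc
Alad, chr4:62520064-62520313, reverse strand: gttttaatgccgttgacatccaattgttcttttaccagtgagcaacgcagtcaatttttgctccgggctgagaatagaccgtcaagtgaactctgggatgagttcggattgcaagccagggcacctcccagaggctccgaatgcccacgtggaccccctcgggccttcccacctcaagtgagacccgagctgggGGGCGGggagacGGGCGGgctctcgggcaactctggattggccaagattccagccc
Each of these 3 holds at least 1 SP/KLF match, a motif found in 32.7% of 32851 such windows. The windows of Gon4l and of a second Fggy start, read but not printed, hold none, so the 3 do not show how often it occurs. The Rgs9 window also holds both E-boxes, which are found in 14.4% of windows (CAGATG) and in 4271 windows (CAGCTG).

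Fggy, a member of a family of carbohydrate kinases, had its promoter peak at 20.1 and 20.6 CPM in B6 and 6.73 and 6.61 CPM in D2 (log2 difference −1.61 ± 0.094). Its RNA was at 37.1 and 37.1 CPM in B6 and 4.30 and 3.80 CPM in D2 (log2 difference −3.19 ± 0.13). Rgs9, which speeds the shut-off of G protein signals, had 14.96 and 13.3 CPM of accessibility in B6 and 7.88 and 7.56 CPM in D2 (log2 difference −0.87 ± 0.098). Rgs9 RNA was at 25.8 and 27.0 CPM in B6 and 6.62 and 5.15 CPM in D2 (log2 difference −2.16 ± 0.14). In both genes the libraries of the strains did not overlap in either readout, which the choice of pairs by small p made close to certain. Such separation held for 99.8% of all called peaks and 47.5% of all peaks tested. The RNA of both genes differed by more than the promoter. Rassf8, a protein with a Ras association domain, had the same order, with log2 differences of −0.70 at the promoter and −1.62 in RNA.

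Alad, the enzyme of haem synthesis that joins aminolevulinate molecules, had a promoter at 14.0 and 14.3 CPM in B6 and 48.0 and 47.6 CPM in D2 (log2 difference 1.75 ± 0.076). Its RNA went from 3.85 and 3.68 CPM to 13.9 and 16.3 CPM (log2 difference 2.00 ± 0.17). Lpl, lipoprotein lipase, differed less at its promoter, with 13.6 and 14.7 CPM in B6 and 20.2 and 21.8 CPM in D2 (log2 difference 0.57 ± 0.083), than in RNA, with 8.43 and 5.995 CPM against 29.1 and 34.7 CPM (2.14 ± 0.15). Sfi1 RNA was at 42.7 and 39.6 CPM in B6 and 264 and 277 CPM in D2 (log2 difference 2.72 ± 0.077), beside its promoter difference of 3.67. Catsperg2 had a promoter difference of 2.36, and its RNA had 1 count in each B6 library and 114 and 77 counts in the D2 libraries.

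Both promoters without counts in D2 had many repeated words. At Gon4l, a nuclear regulator of transcription, the peak measured 2.89 and 3.07 CPM in B6 and 0 in D2, at least 79.1-fold lower, with 68.6% repeated words, and RNA was lower by 1.82 on the log2 scale. The zinc finger gene Zfp951 had neighbouring promoter peaks of opposite direction. The one nearer the start had 2.73 and 2.11 CPM in B6 and no count in D2, while the other had 0.0332 and 0.176 CPM in B6 and 1.09 and 1.38 CPM in D2. Zfp951 RNA was at 2.99 and 2.25 CPM in B6 and 19.8 and 15.7 CPM in D2 (log2 difference 2.76 ± 0.19).

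**Figure D4:**
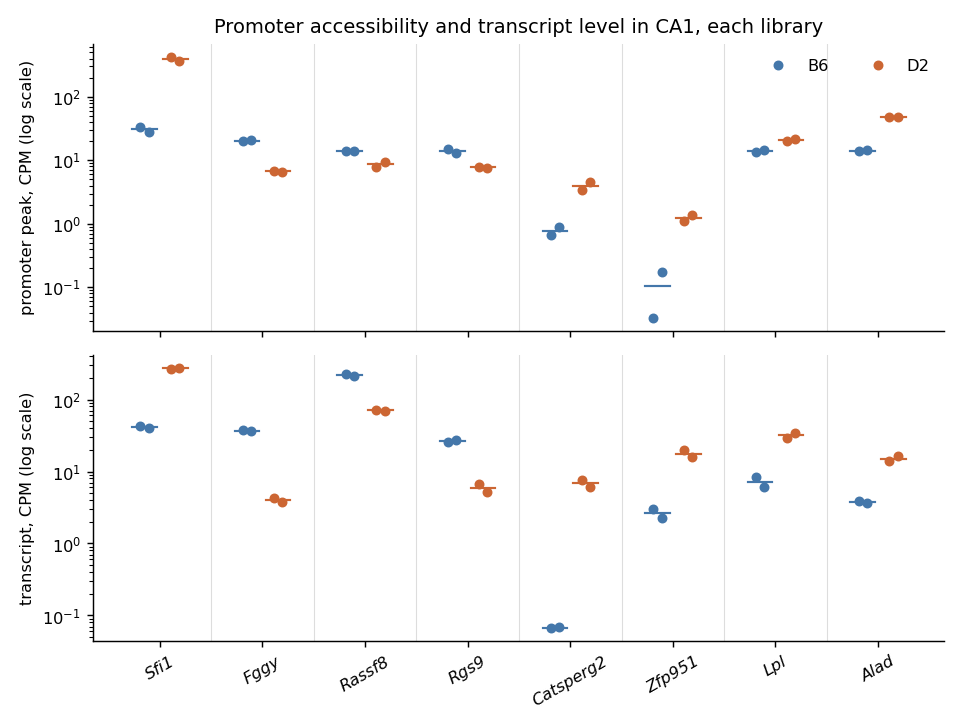
For 8 genes called in both assays, points give each library's CPM at the promoter peak (top) and of the transcript (bottom) on log scales, B6 in blue and D2 in orange, with a line at each mean of 2 libraries. Fggy, Rassf8 and Rgs9 were lower in D2 in both panels and the others higher; the peaks of Gon4l and Zfp951 without counts in D2 are not drawn.

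In lists drawn up from general knowledge of hippocampal neurons, glutamate receptors had 4 of 36 promoter peaks called, all higher in D2, against 8.92% of promoter peaks of all genes, and GABA receptors 1 of 17, which was lower. For potassium channels 2 of 40 were higher, for sodium, calcium and HCN channels 4 were higher and 1 lower of 40, and for synaptic adhesion genes 4 of 52 were higher. Pyramidal transcription factors had 3 higher and 1 lower of 40. None of 31 promoter peaks of activity-induced genes was called. A further list, of loci known beforehand to differ between B6 and D2, had 2 of 12 promoter peaks higher, those of Alad and Glo1. In that list 16 of 193 peaks in gene bodies outside promoters were called. Its promoter peaks stood at 2 higher and 0 lower after offsets for peak height and GC content. Peaks in gene bodies outside promoters were called in 82 of 1657 for glutamate receptors, 41 of 516 for GABA receptors, 73 of 1469 for potassium channels, 62 of 1042 for the other channels and 176 of 3128 for adhesion genes, against 7.16% of body peaks of all genes. After offsets for peak height and GC content, glutamate receptors had 2 promoter peaks higher and 0 lower. Adhesion genes then had 1 higher and 2 lower, and pyramidal transcription factors and activity-induced genes each 0 higher and 1 lower. GABA receptors had 0 higher and 2 lower, and each of the channel lists 2 higher and 1 lower. No test was run on these lists.

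Most called promoter peaks of the lists differed little. Those of the glutamate receptor genes Grin1, Grin3a, Grik1 and Grik3 differed by 0.21 to 0.44 on the log2 scale, and those of the sodium channel gene Scn2a, the calcium channel gene Cacnb4, the neurexin Nrxn2 and the transcription factor Mef2c by 0.25 to 0.32. Grin3a RNA was higher as well (0.42 ± 0.073). The promoter of Kcnc2, a fast potassium channel, was at 6.65 and 6.76 CPM in B6 and 11.8 and 11.6 CPM in D2 (log2 difference 0.80 ± 0.10), but its RNA was lower, at 269 and 241 CPM against 183 and 174 CPM (−0.52 ± 0.072). Cdh9, a cadherin, had a higher promoter (0.40 ± 0.10) and more RNA (0.57 ± 0.082). Of the 22 called peaks of the lists, 15 were no longer called without B6 library 2, 15 without B6 library 3, 13 without D2 library 2, 14 without D2 library 3 and 18 in DESeq2. With offsets for peak height and GC content, 10 of the 22 were no longer called. Only Alad, Glo1 and Kcnc2 kept the call in every setting run for these peaks.

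The CA1 columns hold 3 subtypes, which the study named for the genes Galntl6, Fras1 and Camk2d. Galntl6 nuclei held 61.0% and 50.2% of CA1 counts in B6 and 47.1% and 48.8% in D2, so the make-up of the sums varied between libraries, and its part in the results was not tested. A test of whether the strain difference itself differed between subtypes called 424 peaks (0.141%), and 73 to 272 when 1 of the 4 libraries was left out. Levels in this and the next comparisons are CPM of each cell group's own total. The sequences of 2 of these peaks are printed for their contrast between subtypes.
Upstream of D16Ertd472e, chr16:78606050-78606349, with an AP-1 match: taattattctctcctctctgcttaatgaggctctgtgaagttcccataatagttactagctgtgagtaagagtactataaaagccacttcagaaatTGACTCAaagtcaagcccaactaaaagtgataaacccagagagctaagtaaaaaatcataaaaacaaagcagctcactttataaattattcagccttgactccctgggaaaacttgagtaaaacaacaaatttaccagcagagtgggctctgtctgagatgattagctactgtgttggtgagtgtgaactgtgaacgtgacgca
Intron of Gm17655, chr5:110057617-110057916, with both E-boxes and NFI: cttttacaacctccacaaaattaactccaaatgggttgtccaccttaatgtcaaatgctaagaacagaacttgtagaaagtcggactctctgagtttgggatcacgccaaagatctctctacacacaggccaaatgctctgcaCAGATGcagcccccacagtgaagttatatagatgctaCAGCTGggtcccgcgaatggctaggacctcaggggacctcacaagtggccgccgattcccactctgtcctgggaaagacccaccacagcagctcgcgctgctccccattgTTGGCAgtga
At the first, Fras1 nuclei had 6.77 and 6.32 CPM in B6 and 1.19 and 0.807 CPM in D2, while Camk2d nuclei had 2.80 and 3.21 CPM in B6 and 6.01 and 6.10 CPM in D2. The directions were thus opposite in these subtypes, and over all of CA1 the peak did not pass (adjusted p = 0.614 in edgeR). At the second, D2 was higher by 1.37 on the log2 scale in Galntl6, 3.65 in Fras1 and 3.17 in Camk2d nuclei.

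A peak 223300 bp from the start of BC048507 was higher in D2 in Galntl6 nuclei, with 1.04 and 1.25 CPM in B6 and 7.11 and 6.72 CPM in D2. In Camk2d nuclei it had 4.38 and 6.74 CPM in B6 and 3.64 and 5.04 CPM in D2, and the strain differences differed by −2.90 (adjusted p = 3.89e-11 in edgeR). The promoter peak of Gzmn was lower in D2 by 3.01 in Galntl6 nuclei and by 1.13 in Fras1 nuclei. A peak at Klk8 and 2310002F09Rik was lower in D2 in Galntl6 and Fras1 nuclei (−0.58 and −1.54) and higher in Camk2d nuclei (0.74). RNA of 2310002F09Rik in all CA1 nuclei was lower, at 28.4 and 30.2 CPM in B6 and 6.09 and 5.54 CPM in D2.

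The strain difference in CA1 was next compared with that in CA3 pyramidal neurons, dentate gyrus (DG) granule neurons and interneurons of the same libraries. The interneurons are the class the study named Inh-MGE, for the medial ganglionic eminence where such cells arise. The difference of the differences was called at 1439 peaks for CA3 (0.478%), 3436 for DG (1.14%) and 559 for interneurons (0.186%). The interneuron comparison was planned over all 3 interneuron columns, which had called more peaks and is not reported here. Leaving out any 1 of the 4 libraries lowered these counts to 429 to 652, 1225 to 2156 and 200 to 239. Counts of peaks cannot rank the cell types, since their nuclei and depth differ. The 5 peaks with the smallest p in each comparison are given next. For 2 of them the sequence is printed, because the strains parted in the compared cell type but much less in CA1.
Intron of Klhl1, chr14:96250026-96250325, with both E-boxes: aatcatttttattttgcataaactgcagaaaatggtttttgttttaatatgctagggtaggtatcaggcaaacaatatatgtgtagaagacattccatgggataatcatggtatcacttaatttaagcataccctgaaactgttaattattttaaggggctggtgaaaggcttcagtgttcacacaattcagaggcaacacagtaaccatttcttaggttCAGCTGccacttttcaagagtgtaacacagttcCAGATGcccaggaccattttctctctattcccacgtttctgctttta
Intron of Dnah10, chr5:124809731-124810030, with AP-1 and both E-boxes: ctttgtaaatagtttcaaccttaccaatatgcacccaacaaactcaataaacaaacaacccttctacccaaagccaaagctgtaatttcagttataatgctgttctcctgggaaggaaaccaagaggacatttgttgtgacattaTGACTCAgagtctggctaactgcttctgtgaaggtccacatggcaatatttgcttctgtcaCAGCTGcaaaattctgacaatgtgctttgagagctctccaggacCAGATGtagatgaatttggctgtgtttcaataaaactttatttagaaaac
In the intron of Klhl1, a neuronal actin-binding protein, CA1 had 4.16 and 5.09 CPM in B6 and 3.90 and 4.85 CPM in D2, while CA3 had 0.902 and 1.62 CPM in B6 and 7.00 and 8.46 CPM in D2. The strain difference in CA1 was lower than that in CA3 by 2.71 on the log2 scale (adjusted p = 7.42e-20 in edgeR). DG parted as well, with 1.08 and 0.606 CPM in B6 and 4.69 and 4.53 CPM in D2. In the intron of Dnah10, a dynein gene, D2 was higher in CA1 by 0.94 and in DG by 3.13. CA3 was higher in D2 too, with 6.76 and 6.77 CPM in B6 and 17.8 and 15.8 CPM in D2. Interneurons had 2.37 and 1.92 CPM in B6 and 5.24 and 3.29 CPM in D2.

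Other peaks changed in CA1 and not detectably in CA3. Over an exon of Sctr, the secretin receptor, CA1 had 6.44 and 7.97 CPM in B6 and 1.04 and 1.23 CPM in D2, and CA3 had 8.46 and 9.94 CPM in B6 and 7.91 and 7.90 CPM in D2. The difference between the cell types was −2.42 (adjusted p = 4.99e-24 in edgeR). A peak 22505 bp upstream of Dr1, a repressor of transcription, was lower in D2 in CA1 by 2.36 and in CA3 by 0.026, and the test in CA3 did not pass (adjusted p = 0.960 in edgeR). Both remaining peaks were very tall and were lower in D2 in CA3, by 0.62 in the one nearest Axin2 and by 0.41 in the other, with CA1 differences of −0.11 and −0.014 that did not pass. With the library number as a block the first of these passed (adjusted p = 0.00128 in edgeR), and with offsets for height and GC content both did, at −0.29 and −0.27. The second, at the ribosomal RNA locus of chromosome 17 with AY036118, took 4528 to 5093 CPM in CA1, and there the counts of near-identical copies cannot be separated. The first took 259 to 310 CPM in CA1. Repeated words were not counted in it, so whether it took reads from copies elsewhere was not tested.

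Against DG, a peak 617298 bp from the start of Mbd2 was lower in D2 in CA1, with 8.25 and 8.84 CPM in B6 and 1.23 and 1.06 CPM in D2, but not detectably in DG, with 3.48 and 4.10 CPM against 3.92 and 3.34 CPM (difference −2.84, adjusted p = 1.01e-16 in edgeR). At Gm4510 the directions were opposite: CA1 had 8.28 and 7.31 CPM in B6 and 3.46 and 3.74 CPM in D2, and DG had 6.88 and 6.71 CPM in B6 and 14.6 and 11.6 CPM in D2. Peaks near Ddx18 and Rnf144a, 828400 and 509813 bp from the starts of these genes, differed in DG by −3.01 and 2.48 and in CA1 by −0.23 and 0.022.

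Against MGE interneurons, the widest gap of the 5 was at a peak 37521 bp upstream of Asph, an enzyme of the endoplasmic reticulum that hydroxylates aspartate. CA1 had 5.16 and 5.54 CPM in B6 and 2.43 and 2.82 CPM in D2, while the interneurons had 4.10 and 4.72 CPM in B6 and 17.7 and 18.5 CPM in D2, so the directions were opposite (difference −3.09, adjusted p = 2.55e-23 in edgeR). A peak 2705 bp upstream of Tac2, which encodes neurokinin B, was at 17.2 and 15.4 CPM in B6 and 6.82 and 6.13 CPM in D2 in CA1. In interneurons it was at 22.5 and 22.7 CPM in B6 and 23.9 and 21.5 CPM in D2, and their test did not pass (adjusted p = 0.955 in edgeR). At the promoter of Fggy, printed above, both were lower in D2, but the interneurons by more (4.07 against 1.61 on the log2 scale). The promoter peak of Gm16008 was lower by 1.95 in CA1 and by 0.63 in interneurons, and its CA1 RNA was lower as well, at 7.77 and 7.49 CPM in B6 and 2.05 and 1.82 CPM in D2. In the intron of C530008M17Rik the interneurons of both strains were open, with 17.9 and 20.1 CPM in B6, while CA1 was at 1.88 and 1.83 CPM in B6 and 9.22 and 9.99 CPM in D2. All 20 peaks of the interaction tests kept their direction under every alternative run for these tests. They kept their call with RLE factors for scaling and with a minimum of 10 counts in each cell group. They were chosen for the smallest p, so this was close to fixed by the choice. DESeq2 and the offsets for peak height and GC content were not run for the interaction tests.

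**Figure D5:**
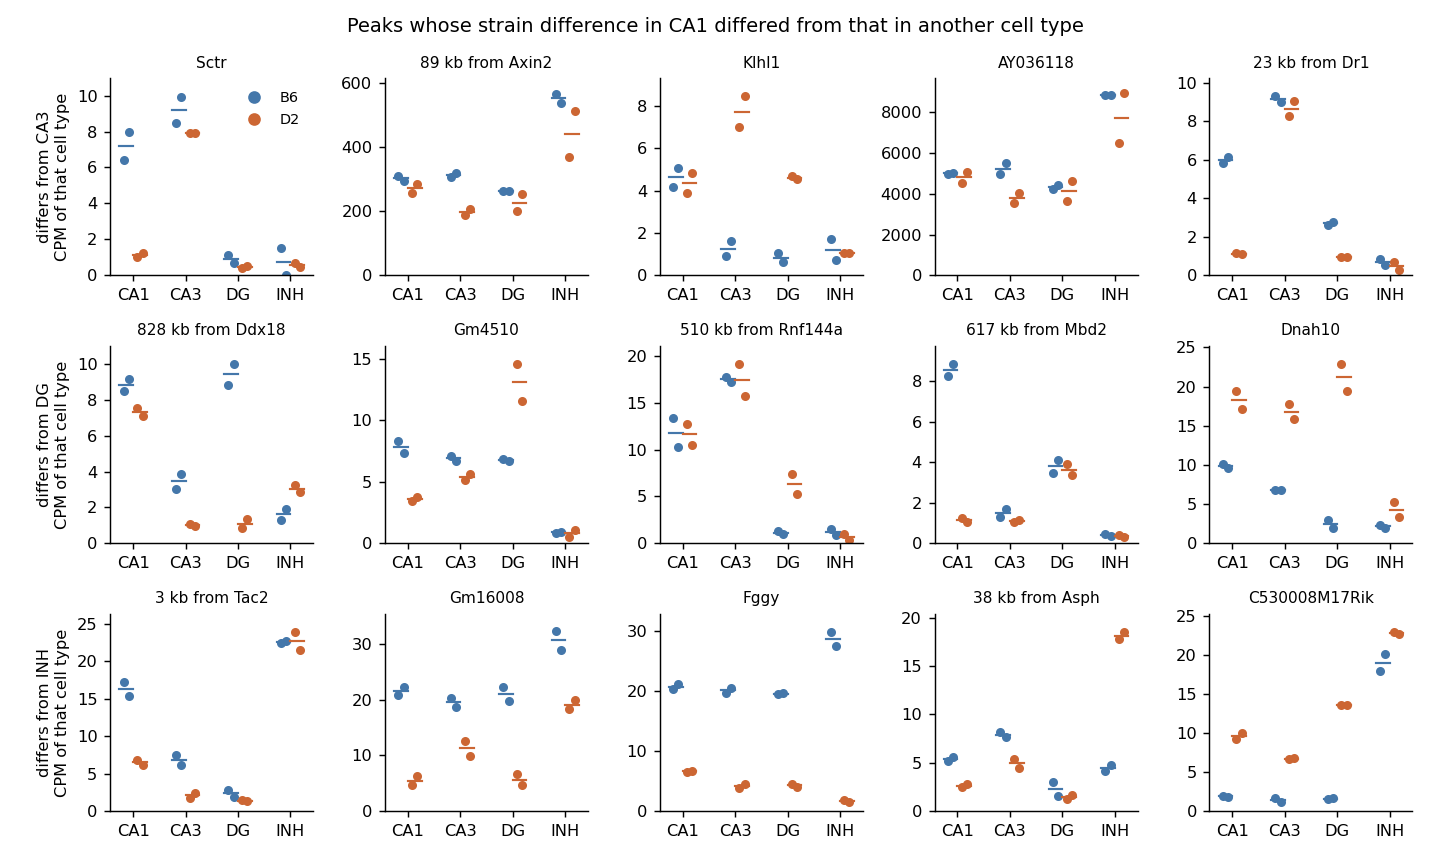
Each panel is 1 peak, named by its gene or the nearest protein-coding start, with the CPM of each library in CA1, CA3, DG and interneurons (INH), B6 in blue and D2 in orange, and lines at the mean of 2 libraries; rows give the cell type whose strain difference was compared with that of CA1. Near Mbd2 the B6 libraries stand far above D2 in CA1, and at Gm4510 CA1 and DG differ in opposite directions.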

How the data were processed

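The study made single-nucleus ATAC-seq and RNA-seq libraries (10X Genomics) from nuclei of the ventral hippocampus. Per the labels, reads were processed with Cell Ranger ATAC 2.0.0 and Cell Ranger 6.0.2, Seurat 4.0.5 and mm10. The authors called peaks with MACS in each sample, merged them, removed very long and very short ones and those seen in few cells, removed doublets, filtered nuclei with a read-pair minimum that differed between libraries, transferred cell types from RNA to ATAC nuclei, and deposited raw counts summed per library and cell type. Reads in introns were kept for RNA. A differing minimum changes counts per nucleus, and a peak that spans copies of a sequence can lose or gain reads with the reference used.

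The deposited counts were used as they are, with no imputed sample. The Exc-CA1 columns of each library were added up. The columns number libraries 2 and 3 and the labels 1 and 2, so each column was assigned to a strain and not to a single sample. Of the per-sample columns, 36 ATAC and 56 RNA columns were not used. Methylation files were not used here. Nothing says that libraries of 1 strain came from separate days, so p-values measure the spread between these libraries of pooled animals.

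Tests were edgeR 4.0.16 quasi-likelihood tests (R 4.3.3) with TMM factors, 2 D2 against 2 B6 libraries, Benjamini-Hochberg adjustment over all peaks or genes, and a threshold of 0.05. Genes were filtered with filterByExpr. The interneuron comparison was planned over all 3 interneuron columns and, after the values had been seen, was limited to the Inh-MGE column, which holds the most counts of the 3. Differences between cell groups were tested as interaction terms with library as a covariate. With 2 against 2 libraries an exact permutation test cannot give a p below 0.333, so none was run. Alternatives were DESeq2 1.42.0, RLE factors or total counts, other filters, each library left out, a block for the library number, and, added after seeing the data, loess offsets (span 0.3) on peak height and on peak height and GC. The scripts were tested on simulated counts. Gene models are GENCODE vM21. Peak coordinates were read as 1-based. Repeated words are 31-base words found more than once in the reference on either strand.

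Named peaks were the 10 per direction with the largest difference (mean of at least 5 CPM, counts in every library, strains apart), the 10 promoter peaks per direction (at least 2 CPM), the 5 tallest per direction with 0 counts in 1 strain, the 5 with the smallest p per interaction, the 10 promoter and transcript pairs with the smallest larger p, and called promoter peaks of the gene lists. The peaks and lists were chosen with earlier results of these data known.

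A few members are not reported here.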

Additional observations from a re-analysis of the deposited data

Results flagged for a closer look

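At 20 peaks the strain difference in CA1, or in 1 of its subtypes, differed from that of another cell group by a test of the difference itself (edgeR interaction terms, adjusted p under 0.05). Values are log2 differences of the D2 minus B6 differences.

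Within CA1, the difference in Camk2d nuclei minus that in Galntl6 nuclei was −2.90 near BC048507, 1.89 near D16Ertd472e and 1.33 at Klk8. The difference in Fras1 nuclei minus that in Galntl6 nuclei was 1.86 at Gzmn and 2.30 in Gm17655.

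For CA1 minus CA3 the values were −2.42 at Sctr, 0.52 in the peak 88639 bp from Axin2, −2.71 in Klhl1, 0.41 at the ribosomal RNA locus with AY036118 and −2.32 near Dr1. Repeated words were not counted in the peak nearest Axin2. Set against DG, CA1 differed by 2.78 in the peak 828400 bp from Ddx18, by −2.04 at Gm4510, by −2.50 in the peak 509813 bp from Rnf144a, by −2.84 near Mbd2 and by −2.21 in Dnah10. Against MGE interneurons the values were −1.36 near Tac2, −1.36 at Gm16008, 2.45 at Fggy, −3.09 near Asph and 2.08 in C530008M17Rik.

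Peaks on unplaced scaffolds were left out of the tests. In CA1 the 43 such peaks held 26651 counts in B6, 13192 and 13459 by library, and 0 in both D2 libraries. Whether the D2 reference held these scaffolds was not tested.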

How the results depend on the processing

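With 24795 peaks called in the main test, DESeq2 called 7520, an adjusted p under 0.01 left 15624, and the Galntl6, Fras1 and Camk2d nuclei alone gave 15703, 5814 and 7174. Leaving out each library gave 15618 to 19262 peaks, 73 to 272 for the subtype interaction (424), 429 to 652 for CA3 (1439), 1225 to 2156 for DG (3436) and 200 to 239 for interneurons (559). Of 8207 transcripts, 5138 were called among those with counts in every library, refitted alone, and 6442 to 8371 without each library. The 396 pairs called in 1 direction in both assays became 106 with DESeq2, and 784 pairs shared the sign when accessibility alone was called. The promoter share of 8.92% became 2.87% with DESeq2 and 7.86% with offsets for height and GC, and the excess of higher over lower promoter peaks, 2.66 percentage points, became 0.226 with DESeq2, −0.386 with offsets for height and −0.273 with offsets for height and GC. The share of CpG-dense peaks, 7.59%, became 2.04% and 5.59%, and their excess, 4.79 points, became 0.637, −1.36 and −1.39. The highest share in a window, 33.5%, was 16.6% with DESeq2 and 47.9% in windows of 1 Mb. The excess of AP-1 in higher over lower peaks, 4.01 points, was 1.65 with DESeq2, and that of SP/KLF, 3.54 points, was 1.18 with DESeq2 and −0.413 with offsets for height and GC. The offsets were added after seeing the data, and the cause of these shifts was not tested.

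Of 97 named peaks, 91 were called in the main test, 75 kept both call and direction under every alternative run for them, 20 lost a call somewhere, 2 gained one and 0 reversed. The 50 peaks named for size, promoter or empty strain kept their direction under these alternatives, and their call in DESeq2, with the block and with the offsets. They were picked for large differences or an empty strain, so this was close to fixed by the choice. It says nothing of the other called peaks. Libraries with the same number did not deviate together (r = 0.0682 across peaks in accessibility and −0.0492 across genes in RNA), so the number was not taken as a pairing. With it as a block, 28406 peaks and 8127 transcripts were called. The number of libraries limits the precision, and low peaks were least often called: 2.82% in the lowest eighth.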
